A study of Mus musculus with 24 samples.

Results

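The set described here is the cadherins and protocadherins of the mouse hippocampus, 56 of 19938 genes measured on the array. Members were the genes whose platform symbol is Cdh followed by a number, or starts with Pcdh, with the endothelial cadherin Cdh5 left out. Probes that name a single gene were used, and for the 4 members with more than 1 such probe (Cdh18, Cdh24, Pcdh9 and Pcdh15) the brighter probe stood for the gene. The members fall into 5 type I classical cadherins, 12 type II classical cadherins, 5 other cadherins, 12 non-clustered protocadherins and 22 clustered protocadherins, all of the last being Pcdhb genes. The alpha and gamma protocadherin clusters had 0 probes with a single symbol, so Pcdhac2 and Pcdhgc5 were not measured separately.

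Cadherins are calcium-dependent adhesion proteins of the cell surface. Classical cadherins bind like molecules on the facing membrane and hold the actin skeleton through catenins, and in the hippocampus they sit at synapses, where different subtypes mark different inputs and target cells. Protocadherins lack the catenin-binding tail. The clustered ones lie in gene arrays on one chromosome, each neuron uses its own random combination of them, and this combination serves in self-recognition of neurites. The non-clustered ones are expressed in region-specific patterns, and several of them act on dendritic spines and synapses.

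RNA was taken from the hippocampus of male mice of 8 to 9 weeks on a C57BL/6J-129sv mixed background and was hybridised to Affymetrix Mouse Gene 1.0 ST arrays. FoxO6 belongs to the FoxO group of forkhead transcription factors and is found mainly in brain. The 4 groups of 6 arrays were FoxO6 -/- mutants (labelled FoxO6 null) after learning, FoxO6 +/+ wild types (WT) after learning, FoxO6 -/- mutants at basal and FoxO6 +/+ WT at basal. Learning mice were given 10 min with a pair of identical objects and were sampled 60 min later, having met the empty arena for 10 min 24 h before, whereas basal mice had lived singly for at least 3 days. The design asks what loss of FoxO6 changes in each state, what differs after the task, and whether that difference depends on FoxO6. Learning mice were also handled daily and taken to a procedure room, and no scan date or batch is given in the sources used here, so the task cannot be told apart from these.

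Values are log2 signals made by the authors with RMA, which corrects background, sets the arrays to one distribution and summarises the probes of a gene. The arrays had medians of 6.16 to 6.30, and pairs of arrays in a group correlated at 0.991 to 0.997 across genes. Foxo6 itself averaged 6.24 ± 0.15 in mutants after learning and 6.87 ± 0.15 in WT after learning, and 6.30 ± 0.16 in mutants at basal and 7.03 ± 0.20 in WT at basal (SD, n = 6). Which part of the gene was removed, and where the probe lies relative to it, are not stated in the labels. Markers of the hippocampal fields were present, with group means of 8.45 to 8.75 for 8 dentate granule genes, 8.85 to 9.18 for 4 CA1 genes and 7.82 to 8.06 for 5 CA3 genes. The labels call the arrays biological replicates without saying that each is a separate animal, so the p values refer to the spread among these arrays, whose number limits the precision. In whole tissue, fewer cells of a type and less RNA per cell cannot be told apart, which holds for every difference below.

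After the task, in both genotypes, most type II cadherins and part of the Pcdhb cluster were higher than at basal, while Pcdh1, Pcdh7, Pcdh8, Pcdh19, Cdh4 and Cdh24 were lower. In mutants 27 of 56 members passed an adjusted p under 0.05 in limma (48.2%, against 41.3% of all genes), 19 of them higher and 8 lower. In WT mice 24 members passed (42.9%, against 43.3% of all genes), 18 higher and 6 lower. Members were therefore called about as often as other genes, since the states differed across the whole array. Over the whole array the calls were 22.6% higher and 18.7% lower in mutants, and 25.1% higher and 18.2% lower in WT mice. The median difference of the members was 0.108 in mutants and 0.116 in WT mice on the log2 scale, against medians over all genes of 0.031 in mutants and 0.030 in WT mice.

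**Figure D1:**
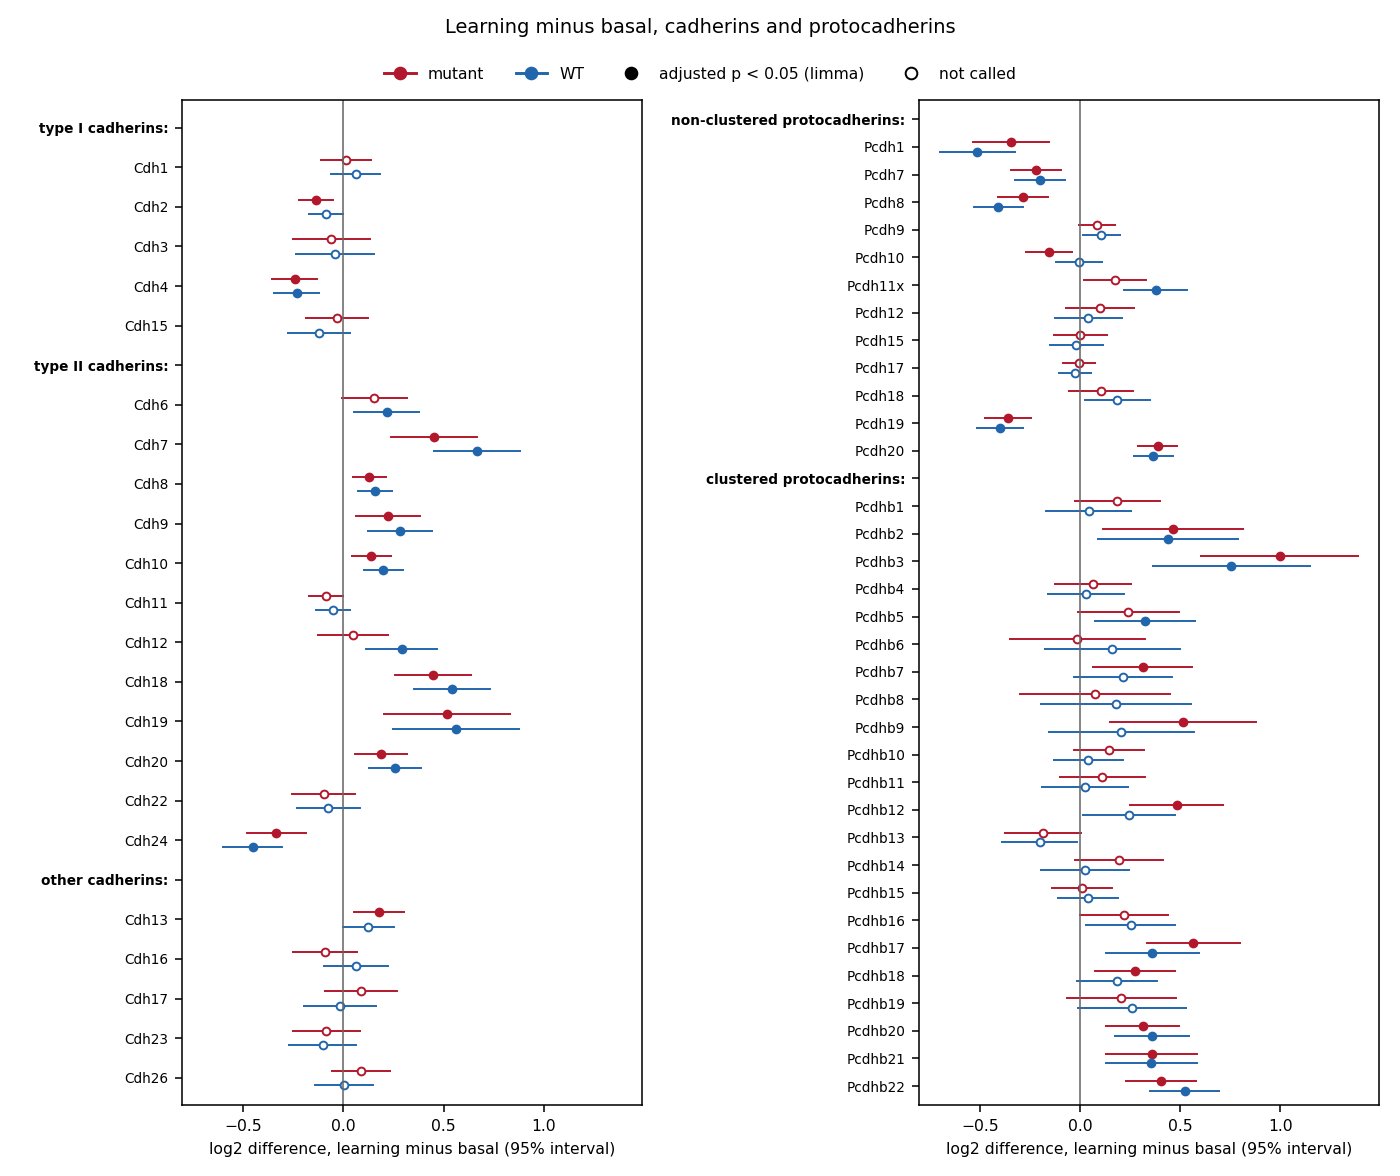
Learning minus basal for all 56 members, as log2 difference with its 95% interval from limma; red is mutant, blue is WT, and filled points passed an adjusted p under 0.05. Most type II cadherins and Pcdhb genes lie to the right of 0 in both genotypes, and the lowest value is that of Pcdh1 in WT mice, −0.51.

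Among the non-clustered protocadherins the differences ran both ways. In mutants 1 of 12 rose and 5 fell, and in WT mice 2 rose and 4 fell. Over all genes 22.6% rose and 18.7% fell in mutants, and 25.1% rose and 18.2% fell in WT mice. The class was thus called at 50% in each genotype, near the 41.3% of all genes in mutants and 43.3% in WT mice. Pcdh20, Pcdh19 and Pcdh8, which had the smallest p values of the set in WT mice, belong here. Pcdh8, also called arcadlin, is a delta-2 protocadherin that neuronal activity induces in rat hippocampus and that promotes endocytosis of N-cadherin. Pcdh19, another delta-2 member, binds N-cadherin, and its human gene causes an epilepsy that affects girls. Pcdh20 is a protocadherin of the nervous system outside the delta groups. Their promoters are shown because these genes moved by similar amounts in opposite directions. The sequences are the 250 bases before the annotated start, from RefSeq on GRCm38.p6, 5′ to 3′ on the gene's strand, with motif matches in capitals.
Pcdh20 (chr14:88471397-88471646, minus strand): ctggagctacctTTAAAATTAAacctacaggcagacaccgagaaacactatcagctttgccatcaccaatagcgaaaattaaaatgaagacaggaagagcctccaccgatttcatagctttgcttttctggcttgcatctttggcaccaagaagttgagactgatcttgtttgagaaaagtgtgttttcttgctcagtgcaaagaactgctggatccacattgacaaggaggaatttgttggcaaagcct
Pcdh19 (chrX:133688994-133689243, minus strand): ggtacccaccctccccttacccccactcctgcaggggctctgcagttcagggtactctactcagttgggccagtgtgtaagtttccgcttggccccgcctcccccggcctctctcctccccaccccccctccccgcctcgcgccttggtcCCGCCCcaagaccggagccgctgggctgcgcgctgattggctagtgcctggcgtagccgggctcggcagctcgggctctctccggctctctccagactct
Pcdh8 (chr14:79771313-79771562, minus strand): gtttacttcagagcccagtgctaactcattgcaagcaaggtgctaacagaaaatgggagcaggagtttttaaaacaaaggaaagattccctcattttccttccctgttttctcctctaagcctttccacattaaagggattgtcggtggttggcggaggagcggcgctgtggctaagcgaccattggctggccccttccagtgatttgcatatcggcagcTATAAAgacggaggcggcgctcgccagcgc

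The promoter table held 22 of the 56 members and was searched on both strands for 5 motifs by letters and for the CArG box and the MEF2 motif by name. TATAAA, the TATA box, stands 30 to 25 bases before the start of Pcdh8, and is in 12.4% of all 32851 promoters in the table. Among the members it was also found in Pcdh15. The MEF2 motif stands 238 to 229 bases before the start of Pcdh20 and is in 2.92% of all promoters. Cdh10 held it as well. GGGCGG, the core of the Sp1 motif, lies on the other strand 100 to 95 bases before the start of Pcdh19 and is in 32.7% of all promoters. It was in 9 of the 22 members, among them Cdh15, Cdh22 and Pcdh17, which were not called between states. TGACG, the half-site of the CRE motif, was found in Cdh8, Pcdh9 and Pcdh10 (17.8% of all promoters). TGTTTAC (the forkhead motif, 3.17%), TGANTCA (the AP-1 motif, 6.75%) and the CArG box (1.47%) were in 0 of the 22. These matches are descriptions of the letters in the window. For Pcdh19 the table's start lies inside the gene record, so its window overlaps the gene.

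Pcdh20 (chr14:88464743-88471396) lay between 10.34 and 10.63 (median 10.50) in mutants after learning, against 9.90 to 10.16 (median 10.13) in mutants at basal. In WT mice it lay between 10.35 and 10.59 (median 10.53) after learning, against 10.07 to 10.22 (median 10.14) at basal. Every learning array was above every basal array in each genotype. The difference was 0.39 (95% interval 0.29 to 0.49, adjusted p = 7.54e-08) in mutants and 0.36 (0.27 to 0.46, adjusted p = 2.3e-07) in WT mice.

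Pcdh19 (chrX:133582860-133689044) lay between 8.56 and 8.79 (median 8.72) in mutants after learning, against 8.98 to 9.16 (median 9.07) in mutants at basal. In WT mice the range was 8.51 to 8.77 (median 8.66) after learning, against 8.89 to 9.28 (median 9.05) at basal. All learning arrays were thus below all basal arrays of their genotype. Pcdh19 fell by 0.36 in mutants (adjusted p = 4.43e-06) and by 0.40 in WT mice (adjusted p = 9.38e-07).

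Pcdh8 (chr14:79766772-79771312) showed 7.62 to 7.88 (median 7.72) in mutants after learning, against 7.88 to 8.11 (median 8.04) in mutants at basal. WT mice showed 7.62 to 7.79 (median 7.71) after learning, against 7.85 to 8.29 (median 8.13) at basal. The ranges were apart in both genotypes, although in mutants the highest learning array and the lowest basal array both read 7.88 at this rounding. The fall was 0.29 in mutants (adjusted p = 0.000284) and 0.41 in WT mice (adjusted p = 2.14e-06).

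Pcdh1, a delta-1 protocadherin known from airway epithelium and brain, fell by 0.34 in mutants (adjusted p = 0.00301) and by 0.51 in WT mice (adjusted p = 3.23e-05). Its arrays overlapped in mutants, with 6.58 to 7.03 after learning against 6.99 to 7.41 at basal, but not in WT mice, with 6.59 to 6.88 after learning against 6.92 to 7.53 at basal. Pcdh7, a delta-1 member that binds the phosphatase PP1, fell by 0.22 in mutants (adjusted p = 0.00461) and by 0.20 in WT mice (adjusted p = 0.00914; 0.0549 with each array centred on its median). Pcdh11x, the X-linked delta-1 member, averaged 7.97 ± 0.10 in mutants after learning and 7.80 ± 0.11 in mutants at basal, and 8.05 ± 0.14 in WT mice after learning and 7.68 ± 0.19 in WT mice at basal (SD, n = 6). The mutant difference of 0.17 did not pass (adjusted p = 0.0678), and in WT mice Pcdh11x rose by 0.38 (adjusted p = 0.000159).

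Pcdh10, a delta-2 protocadherin that takes part in synapse elimination, fell by 0.15 in mutants (adjusted p = 0.0285; 0.0502 to 0.0973 with centred arrays, array weights or the mutant arrays alone), and its WT difference was −0.004 (95% interval −0.119 to 0.112). The test of the difference between genotypes gave an unadjusted p of 0.0719 for Pcdh11x and 0.0696 for Pcdh10 (adjusted p = 1 for both), so neither gene was shown to differ in its response. Pcdh17, a delta-2 member of presynaptic sites, had the smallest within-group spread of the set, an SD of 0.061. Its differences were −0.01 in mutants (95% interval −0.09 to 0.07) and −0.02 in WT mice (−0.10 to 0.06). Pcdh9 had differences of 0.08 in mutants (adjusted p = 0.139) and 0.11 in WT mice (adjusted p = 0.0535), which missed the threshold. Its other probe gave 0.10 in mutants (adjusted p = 0.0653 over all probes) and rose by 0.14 in WT mice (adjusted p = 0.0104). Pcdh12 (an endothelial protocadherin), Pcdh15 (a tip-link protein of inner ear hair cells) and Pcdh18 were not called in either genotype.

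**Figure D2:**
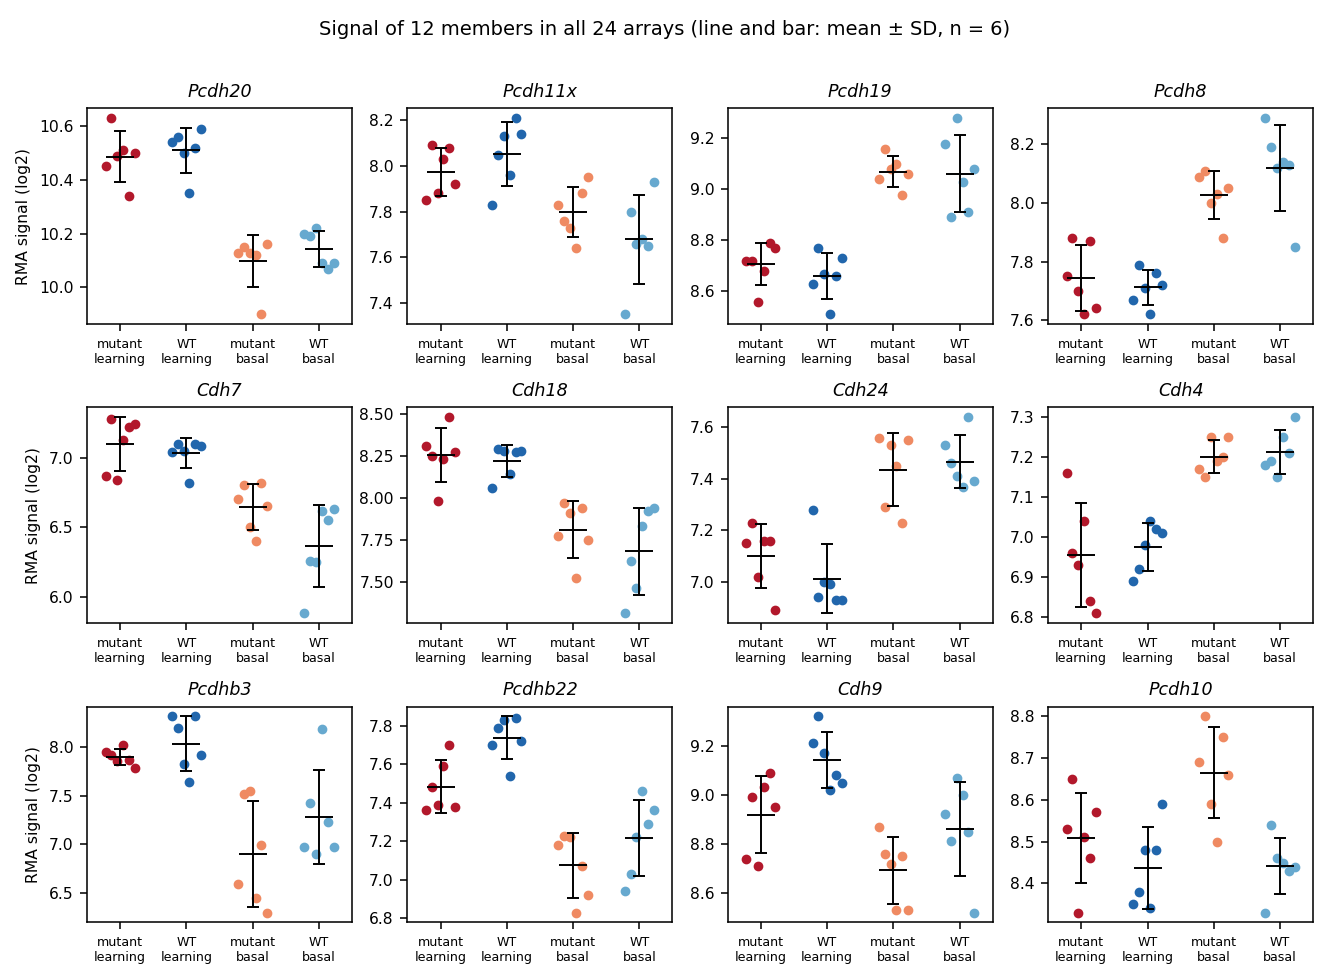
RMA signal (log2) of 12 members in each of the 24 arrays, with group mean and SD (n = 6) as line and bar; every panel has its own axis, and no axis starts at 0. The ranges of Pcdh20, Cdh7, Cdh18 and Pcdhb22 after learning lie above those at basal in both genotypes. Those of Pcdh19 and Pcdh8 lie below, with the mutant values of Pcdh8 meeting at 7.88 when rounded. The genotypes overlap in every panel within a state.

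Among the type II classical cadherins 7 of 12 rose and 1 fell in mutants, where 22.6% of all genes rose and 18.7% fell. In WT mice 9 rose and 1 fell, where 25.1% of all genes rose and 18.2% fell. The median difference was 0.147 in mutants and 0.236 in WT mice. With the mean of the choroid plexus markers as a covariate 4 rose in mutants, the calls of Cdh8, Cdh10 and Cdh20 being lost (adjusted p = 0.0539, 0.0906 and 0.137), and 8 rose in WT mice. All 12 had the same sign in both genotypes, and 8 were called in both. Cdh7, a type II cadherin best known from chick neural crest and spinal cord, had the largest WT difference of this class. It lay between 6.84 and 7.28 (median 7.18) in mutants after learning, against 6.40 to 6.82 (median 6.67) in mutants at basal. In WT mice it lay between 6.82 and 7.10 (median 7.06) after learning, against 5.88 to 6.63 (median 6.41) at basal. The ranges did not overlap in either genotype, and Cdh7 rose by 0.45 in mutants (adjusted p = 0.000818) and by 0.67 in WT mice (adjusted p = 5.47e-06).

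Cdh18, a brain cadherin, lay between 7.98 and 8.48 in mutants after learning, against 7.52 to 7.97 in mutants at basal, and between 8.06 and 8.29 in WT mice after learning, against 7.31 to 7.94 in WT mice at basal. The states did not overlap. It rose by 0.45 in mutants (adjusted p = 0.000226) and by 0.54 in WT mice (adjusted p = 1.78e-05), and its other probe gave 0.41 in mutants and 0.51 in WT mice. Cdh19, a cadherin of glia and neural crest derivatives, rose by 0.52 in mutants (adjusted p = 0.0069) and by 0.56 in WT mice (adjusted p = 0.00339). Its arrays varied more than those of the other type II members, with an SD of 0.306 within groups, and overlapped between states.

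Cdh8, Cdh9 and Cdh10 are the type II cadherins best studied at hippocampal synapses. Cdh9 is needed in mice for mossy fibre synapses of dentate granule cells on CA3 cells, Cdh8 is known from mossy fibre and cortical circuits, and Cdh10 acts with Cdh6 and Cdh9 at synapses on CA1 cells. Cdh9 averaged 8.92 ± 0.15 in mutants after learning and 8.69 ± 0.14 in mutants at basal, and 9.14 ± 0.11 in WT mice after learning and 8.86 ± 0.19 in WT mice at basal. It rose by 0.22 in mutants (adjusted p = 0.0229) and by 0.28 in WT mice (adjusted p = 0.00388). Cdh10 rose by 0.14 in mutants (adjusted p = 0.0205) and by 0.20 in WT mice (adjusted p = 0.00109). Cdh8 rose by 0.13 in mutants (adjusted p = 0.011) and by 0.16 in WT mice (adjusted p = 0.0021). A further quantile normalization of all arrays ended the mutant call of Cdh8, with a difference of 0.07 (adjusted p = 0.227). Cdh20 rose by 0.19 in mutants (adjusted p = 0.0185; 0.0504 in a model of the mutant arrays alone) and by 0.26 in WT mice (adjusted p = 0.00151).

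Cdh6 and Cdh12 were called in WT mice only. Cdh6, or K-cadherin, had a difference of 0.16 in mutants (adjusted p = 0.118) and rose by 0.22 in WT mice (adjusted p = 0.0264). Cdh12, or brain cadherin, had a difference of 0.05 in mutants (adjusted p = 0.702) and rose by 0.29 in WT mice (adjusted p = 0.00692). Neither was shown to differ between genotypes in its response by the interaction test, whose unadjusted p was 0.59 for Cdh6 and 0.0566 for Cdh12 (adjusted p = 1). The WT call of Cdh6 was lost with the choroid plexus covariate, at 0.185 (adjusted p = 0.0772), and with the array median as a covariate, an alternative chosen after seeing the data, at 0.164 (adjusted p = 0.0991). The WT call of Cdh12 was lost with the array median as a covariate, at 0.176 (adjusted p = 0.056).

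Cdh24, which binds catenins like the other classical members, was the type II cadherin that fell. It lay between 6.89 and 7.23 in mutants after learning, against 7.23 to 7.56 in mutants at basal, and between 6.93 and 7.28 in WT mice after learning, against 7.37 to 7.64 in WT mice at basal. The WT ranges were apart, and the mutant ranges met at 7.23. The fall was 0.34 in mutants (adjusted p = 0.000344) and 0.45 in WT mice (adjusted p = 5.93e-06). The second, dimmer probe of Cdh24 did not follow, with −0.02 in mutants (adjusted p = 0.91) and −0.12 in WT mice (adjusted p = 0.301), so the fall rests on 1 of its 2 probes. Cdh11 (osteoblast cadherin, also present in brain) and Cdh22 had differences of −0.10 to −0.05 in both genotypes and were not called.

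Among type I cadherins Cdh4, or R-cadherin, fell in both genotypes. Its level was 6.96 ± 0.13 in mutants after learning and 7.20 ± 0.04 in mutants at basal, and 6.98 ± 0.06 in WT mice after learning and 7.21 ± 0.05 in WT mice at basal. The fall was 0.24 in mutants (adjusted p = 0.000597) and 0.23 in WT mice (adjusted p = 0.000893). Cdh2, or N-cadherin, the main classical cadherin of excitatory synapses, averaged 9.64 ± 0.06 in mutants after learning and 9.78 ± 0.06 in mutants at basal, and 9.65 ± 0.09 in WT mice after learning and 9.74 ± 0.06 in WT mice at basal. It fell by 0.14 in mutants (adjusted p = 0.00906), and its WT difference of −0.09 did not pass (adjusted p = 0.0937). With each array centred on its median the mutant fall of Cdh2 was 0.12 with an adjusted p of 0.0503. Cdh1 (E-cadherin), Cdh3 (P-cadherin) and Cdh15 (muscle cadherin) are known from epithelium and muscle, had levels between 5.25 and 6.34 in all arrays, and were not called.

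Of the 5 other cadherins, Cdh13 rose in mutants. Cdh13, or T-cadherin, is held in the membrane by a lipid anchor and was called with a difference of 0.18 in mutants (adjusted p = 0.0202; 0.0713 with the choroid plexus covariate), against 0.12 in WT mice (adjusted p = 0.1). Cdh16 and Cdh17, known from kidney and intestine, Cdh23, the tip-link partner of Pcdh15, and Cdh26 had differences between −0.10 and 0.10 and were not called.

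The clustered protocadherins lie side by side on chromosome 18, with 22 Pcdhb genes in 256.4 kb. Each is a gene of a single large exon, and the members resemble each other in sequence, so probes may share signal between them; this was not tested. In mutants 10 of 22 rose and 0 fell (45.5% called, against 41.3% of all genes). In WT mice 7 rose and 0 fell (31.8% called, against 43.3% of all genes). Pcdhb2, Pcdhb3, Pcdhb17, Pcdhb20, Pcdhb21 and Pcdhb22 rose in both genotypes. Pcdhb7, Pcdhb9, Pcdhb12 and Pcdhb18 were called in mutants only and Pcdhb5 in WT mice only, without a call in the interaction test. Differences above 0 were seen for 20 of 22 genes in mutants (median 0.231) and 21 of 22 in WT mice (median 0.210). The genes below 0 were Pcdhb6 and Pcdhb13 in mutants and Pcdhb13 in WT mice, where Pcdhb13 had −0.20 (adjusted p = 0.0789). Of all 19938 genes, 11218 lay above 0 in mutants and 11122 in WT mice. The signs of the Pcdhb genes are not separate pieces of evidence, since these genes deviated together from array to array, as described below.

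Pcdhb3 (chr18:37300799-37304585) had the largest difference of all members. It lay between 7.78 and 8.02 (median 7.89) in mutants after learning, against 6.30 to 7.55 (median 6.79) in mutants at basal. In WT mice it lay between 7.64 and 8.31 (median 8.06) after learning, against 6.90 to 8.18 (median 7.10) at basal. The mutant ranges were apart, while 1 WT basal array reached the level of the learning arrays. The difference was 1.00 (95% interval 0.60 to 1.39, adjusted p = 8.51e-05) in mutants and 0.76 (0.36 to 1.15, adjusted p = 0.00182) in WT mice.

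Pcdhb22 (chr18:37518353-37521419), at the far end of the cluster, lay between 7.36 and 7.70 in mutants after learning, against 6.83 to 7.23 in mutants at basal. In WT mice it lay between 7.54 and 7.84 after learning, against 6.94 to 7.46 at basal. Its states did not overlap in either genotype. It rose by 0.41 in mutants (adjusted p = 0.000239) and by 0.52 in WT mice (adjusted p = 7.66e-06). Pcdhb17 rose by 0.57 in mutants and 0.36 in WT mice, Pcdhb20 by 0.31 in mutants and 0.36 in WT mice, and Pcdhb21 by 0.36 in each. Pcdhb2 rose by 0.47 in mutants and 0.44 in WT mice, and its exact two-sided permutation p was 0.0498 in mutants and 0.0584 in WT mice. With the choroid plexus covariate the calls of Pcdhb2, Pcdhb7, Pcdhb9, Pcdhb20 and Pcdhb21 were lost in mutants (adjusted p = 0.0546 to 0.184) and those of Pcdhb2 and Pcdhb5 in WT mice (adjusted p = 0.132 and 0.0845). With the array median as a covariate the WT difference of Pcdhb17 was 0.208 (adjusted p = 0.0809) and that of Pcdhb21 0.212 (adjusted p = 0.0743). Pcdhb2 and Pcdhb5 were then also not called in WT mice (adjusted p = 0.149 and 0.18), nor was Pcdhb7 in mutants (adjusted p = 0.0641). Array weights ended the mutant call of Pcdhb2 (adjusted p = 0.0728), and the exact permutation p in mutants was 0.0628 for Pcdhb7 and 0.0584 for Pcdhb9.

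The comparisons of the 2 genotypes share no arrays. Of the 56 members, 20 were called in both genotypes in the same direction (35.7%, against 34.7% of all genes), 14 higher and 6 lower. The 6 lower ones were Cdh4, Cdh24, Pcdh1, Pcdh7, Pcdh8 and Pcdh19. A further 7 were called in mutants only and 4 in WT mice only, and 25 in neither. The sign was the same for 52 of 56 members (92.9%, against 84.5% of all genes), and the differences correlated across members at 0.904, against 0.921 across all genes, where genes are not independent replicates. Ranges of learning and basal arrays did not overlap for 8 members in mutants (14.3%, against 22.7% of all genes) and for 10 in WT mice (17.9%, against 25.2%).

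Signs of neighbouring members were alike in some stretches and not in others, which was not tested. Cdh20, Cdh7 and Cdh19 lie within 6.2 Mb on chromosome 1 and rose in both genotypes. Cdh6, Cdh9, Cdh10, Cdh12 and Cdh18 lie within 10.4 Mb on chromosome 15, and all 5 had differences above 0 in both. Cdh6 and Cdh12 were not called in mutants. Of all 19938 genes, 11218 lay above 0 in mutants and 11122 in WT mice. On chromosome 14 Pcdh8, Pcdh17, Pcdh20 and Pcdh9 lie within 14.1 Mb, where Pcdh8 fell, Pcdh20 rose and the other genes were not called.

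Loss of FoxO6 changed 0 of 56 members past the threshold in either state. After learning 0.0752% of all genes were called between mutants and WT mice (15 genes) and at basal 0.100% (20 genes), so 0 called members is near the background. At an unadjusted p under 0.05 in limma, 3 of 56 members passed after learning, all lower (7.33% of all genes), and 8 of 56 at basal, 4 higher and 4 lower (4.50% of all genes). Over the average of both states 0.391% of all genes and 0 members were called, with 13 of 56 members at an unadjusted p under 0.05, 5 higher and 8 lower (8.86% of all genes). The share of the members was thus below that of all genes after learning, and above it at basal and on the average. This was not tested. Of these members, 3 at basal and 7 on the average were Pcdhb genes, which deviated together from array to array, as described below. The ranges of mutant and WT arrays overlapped for every member in each state, as they did for all but 0.371% of genes after learning and 0.431% at basal.

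**Figure D3:**
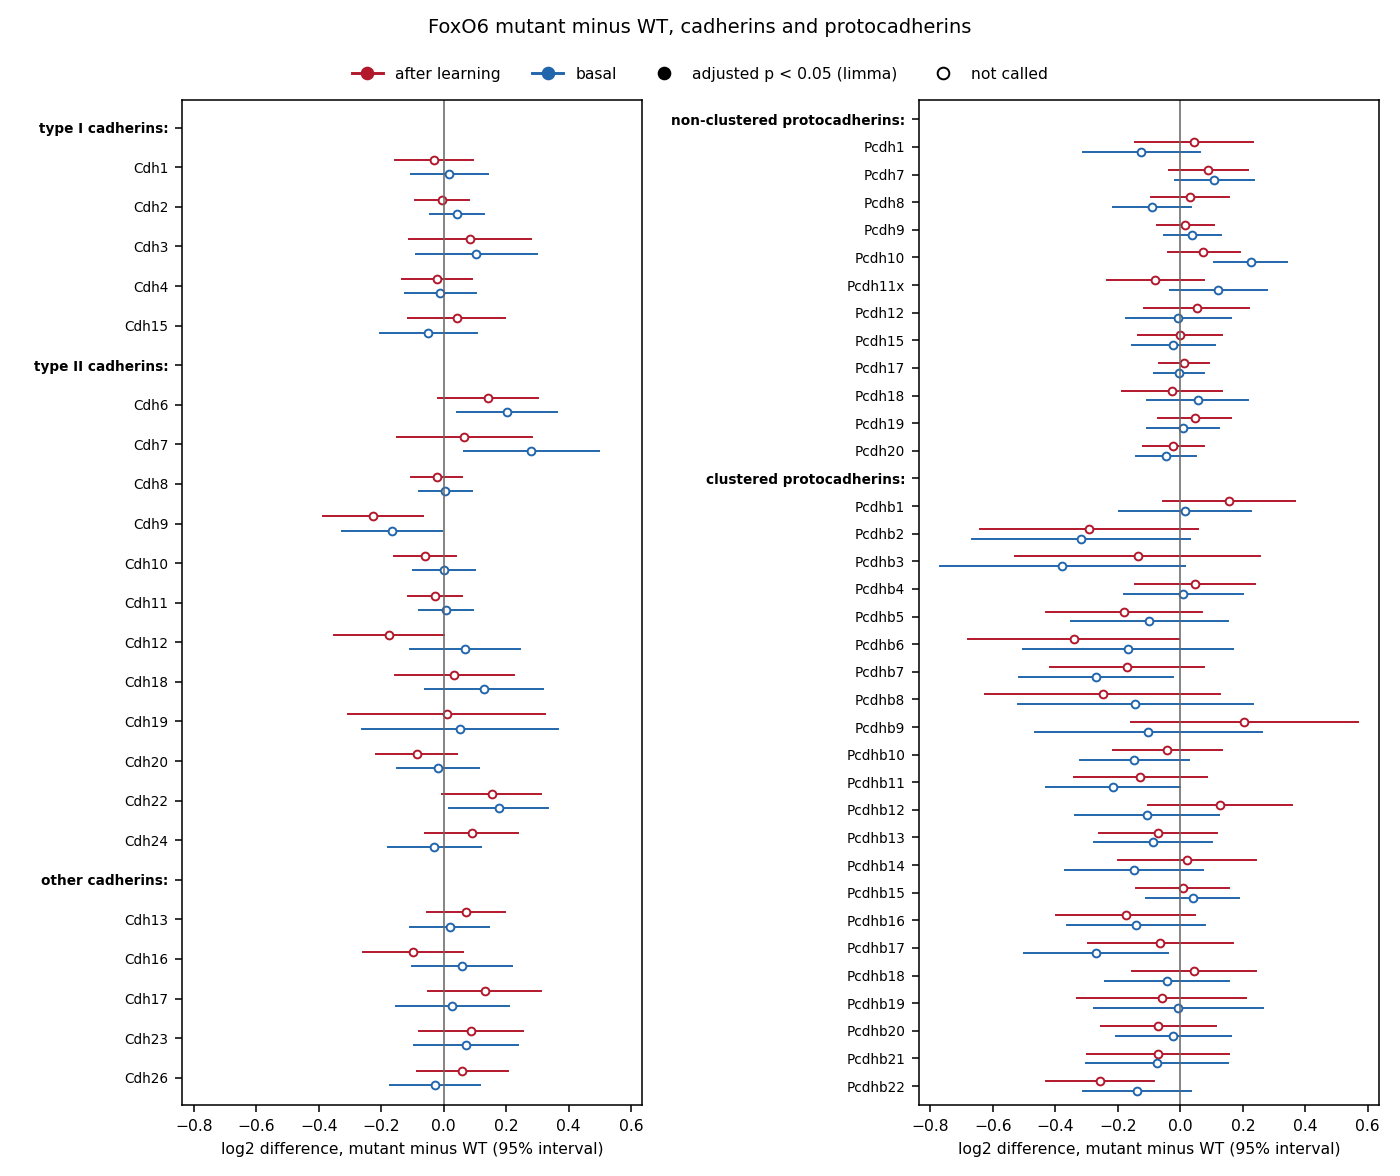
Mutant minus WT for all 56 members, as log2 difference with its 95% interval from limma; red is after learning and blue is basal, and every point is open because 0 members passed an adjusted p under 0.05. Of the 22 Pcdhb genes, 15 lie below 0 after learning and 19 at basal.

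The lowest p values between genotypes belonged to Pcdh10, Cdh9 and Pcdhb22. Pcdh10 (chr3:45378398-45434579) lay between 8.50 and 8.80 (median 8.67) in mutants at basal, against 8.33 to 8.54 (median 8.44) in WT mice at basal. Of the 6 mutant arrays 5 were above the WT range, and the ranges met between 8.50 and 8.54. After learning the mutant arrays lay between 8.33 and 8.65 and the WT arrays between 8.34 and 8.59. The difference was 0.07 after learning (95% interval −0.04 to 0.19, adjusted p = 0.8) and 0.23 at basal (0.11 to 0.34, adjusted p = 0.184). Over both states it was 0.15 with an adjusted p of 0.126. Leaving out mutant learning replicate 3, or mutant basal replicate 4, put this average past the threshold at 0.17 (adjusted p = 0.0413 without the learning array and 0.0446 without the basal array). All 5 measured neocortex markers of 6 lay above 0 in mutants minus WT at basal and 2 after learning, with 0 called. Their mean level lay between 8.84 and 9.03 in mutants at basal and between 8.76 and 8.90 in WT mice at basal. Of 9 interneuron markers, 7 lay above 0 after learning and 8 at basal, with 0 called. The part of these markers in the Pcdh10 values was not tested.

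Cdh9 (chr15:16728550-16857138) lay between 8.71 and 9.09 (median 8.97) in mutants after learning, against 9.02 to 9.32 (median 9.13) in WT mice after learning. At basal it lay between 8.53 and 8.87 (median 8.74) in mutants, against 8.52 to 9.07 (median 8.88) in WT mice. Mutant arrays were lower as a group in both states, and the ranges overlapped. The difference was −0.23 after learning (adjusted p = 0.506), and −0.165 at basal (95% interval −0.325 to −0.005), where it was not called. The average over states was −0.20 at 2 decimals (95% interval −0.31 to −0.08, adjusted p = 0.17). It passed without WT basal replicate 6, at −0.23 (adjusted p = 0.0295), and with each array's median as a covariate, at −0.20 (adjusted p = 0.0194). All 8 dentate granule markers also lay below 0 in mutants in both states, with 1 called at basal and 0 after learning. On the average over states 3 of them were called lower, where 0.391% of all genes were called. Their mean level was 8.61 (8.56 to 8.67) in mutants after learning and 8.75 (8.59 to 8.88) in WT mice after learning. At basal it was 8.45 (8.36 to 8.55) in mutants and 8.65 (8.55 to 8.84) in WT mice. Their part in the Cdh9 values was not tested.

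Pcdhb22 showed 7.36 to 7.70 in mutants after learning, against 7.54 to 7.84 in WT mice after learning, with a difference of −0.26 (adjusted p = 0.458). Its average over both states was −0.20 (adjusted p = 0.226), and −0.21 with the array median as a covariate (adjusted p = 0.0263). The Pcdhb genes as a whole lay mostly below 0, with 15 of 22 after learning (median −0.071) and 19 of 22 at basal (median −0.123), while the medians of all genes were 0 after learning and 0.011 at basal. Their signs are not separate pieces of evidence, since Pcdhb genes deviated together from array to array, as described below. Cdh6 and Cdh22, type II cadherins of brain, had averages above 0, at 0.172 for Cdh6 (adjusted p = 0.273) and 0.165 for Cdh22 (adjusted p = 0.294).

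For many members the genotype difference was bounded closely. The 95% interval for Cdh2 was −0.092 to 0.080 after learning and −0.043 to 0.129 at basal. For Pcdh17 it was −0.068 to 0.092 after learning and −0.085 to 0.075 at basal. For Pcdh20 it was −0.120 to 0.075 after learning and −0.143 to 0.051 at basal. The Pcdhb genes were measured less precisely. The interval of Pcdhb3 ran from −0.53 to 0.26 after learning and from −0.77 to 0.01 at basal.

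The interaction (the mutant difference between states minus the WT difference) called 0 members and 0 of all 19938 genes in limma. At an unadjusted p under 0.05 it held 0 members and 510 genes (2.56%). The largest values were 0.31 for Pcdhb9, 0.24 for Pcdhb12 and Pcdhb3, and −0.24 for Cdh12. The interval of Cdh12 ran from −0.49 to 0.01. Of the 12 type II cadherins 11 had an interaction below 0, with a median of −0.061, against −0.010 for all genes. Among all 19938 genes, 10858 lay below 0. Within groups the type II cadherins had a median r of −0.534 with the median of all probes on the array. Their signs are therefore not separate pieces of evidence.

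The Pcdhb genes varied more between arrays of a group than the other members did. The median within-group SD was 0.211 for the 22 Pcdhb genes, 0.140 for type II cadherins, 0.102 for non-clustered protocadherins, 0.079 for type I cadherins and 0.123 for all genes. The largest was 0.393 for Pcdhb3. Their deviations from the group means ran together, with a median correlation over 24 arrays of 0.476 for the 231 pairs of Pcdhb genes, 202 of them above 0. It was 0.199 for pairs of type II cadherins and 0.192 for pairs of non-clustered protocadherins. Pcdhb3 and Pcdhb6 correlated at 0.926, Pcdhb2 and Pcdhb3 at 0.913, and Pcdhb6 and Pcdhb8 at 0.889, while Pcdhb1 and Pcdhb18 correlated at −0.601. These pairs share arrays and may share probe sequence, and they are given as a description.

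**Figure D4:**
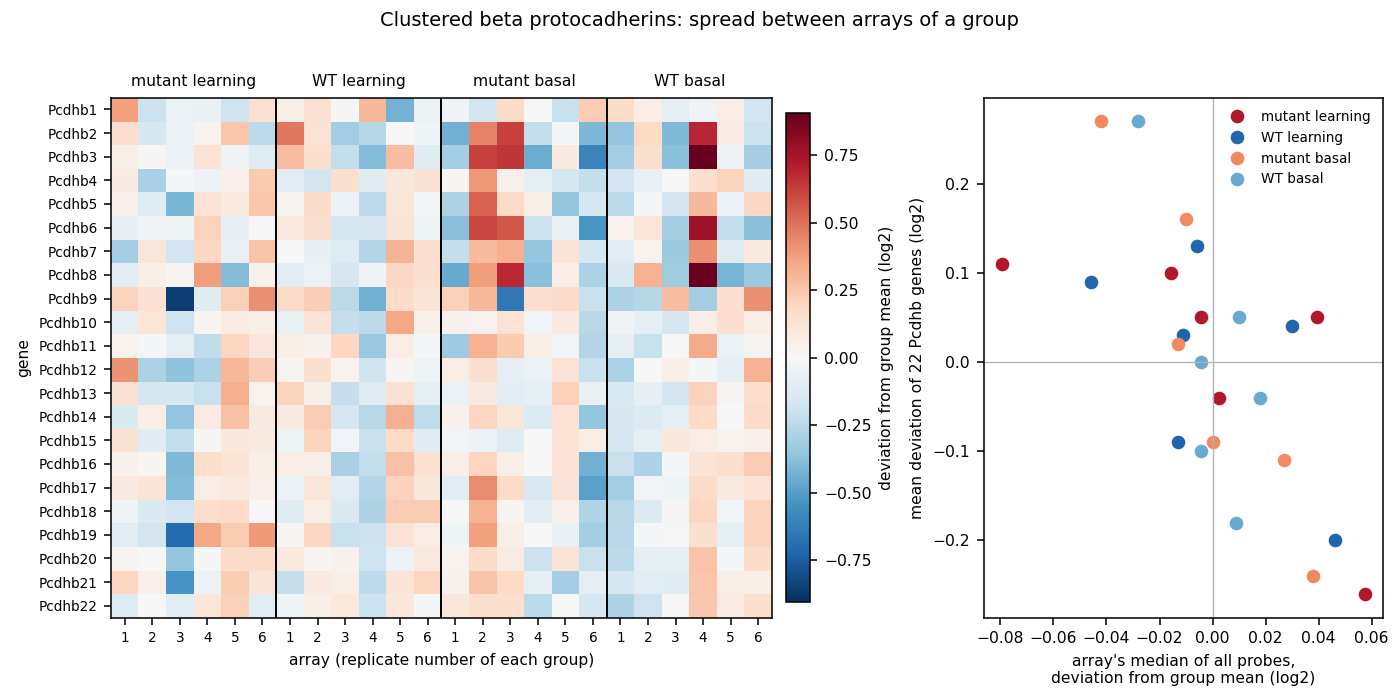
Left, deviation of each Pcdhb gene from its group mean (log2, colour) in each array, by group and replicate number; right, mean deviation of the 22 Pcdhb genes against the deviation of the array's median over all probes, 1 point per array. Pcdhb2, Pcdhb3, Pcdhb6 and Pcdhb8 are high together in mutant basal arrays 2 and 3 and WT basal array 4, and arrays with a higher median have lower Pcdhb values.

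The common deviation of the Pcdhb genes went with a property of the array. Within groups, the mean of the 22 genes fell as the median of all probes on the array increased, with Pearson's r of −0.682 (permutation p = 0.00032) and Spearman's rho of −0.685 (permutation p = 0.00069) over 24 arrays. Adjusted over the 2 relations of the Pcdhb mean, these were 0.00064 and 0.00138. Without the 2 arrays farthest from the median, r was −0.664, and within the single groups it lay between −0.927 and −0.595. The relation to the mean of the choroid plexus markers had r of −0.304 (permutation p = 0.182) and rho of −0.254 (permutation p = 0.258), which missed the threshold. The array median was taken up after seeing the data, which the p values of its relation do not allow for. It was also related to single genes, with a median r of −0.534 for type II cadherins and −0.490 for Pcdhb genes. Over all genes these values ran from −0.915 to 0.959. The array medians ranged from 6.16 to 6.30 in mutants after learning and 6.19 to 6.28 in WT mice after learning, and from 6.22 to 6.30 in mutants at basal and 6.24 to 6.29 in WT mice at basal. With the array median as a covariate, 10 Pcdhb genes were called between states in mutants (10 without it) and 4 in WT mice (7 without it), and 19 of 22 were above 0 in mutants and 16 in WT mice.

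The mean of the 22 Pcdhb genes in an array lay between 6.66 and 7.03 in mutants after learning and between 6.79 and 7.13 in WT mice after learning. At basal it lay between 6.41 and 6.92 in mutants and between 6.60 and 7.05 in WT mice. The group means were 6.92 ± 0.14 in mutants and 7.0 ± 0.13 in WT mice after learning, and 6.65 ± 0.19 in mutants and 6.78 ± 0.16 in WT mice at basal (SD, n = 6). The groups overlapped in every pairing.

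Genes that work with cadherins were read from lists, whose counts stand against 22.6% of all genes higher and 18.7% lower in mutants, and 25.1% higher and 18.2% lower in WT mice. Of 21 catenins and junction partners, 5 rose and 11 fell after learning in mutants, and 5 rose and 8 fell in WT mice, with a median difference of −0.119 in mutants and −0.116 in WT mice. Lin7a, Lin7b and Lin7c, scaffold proteins that bind the cadherin-catenin complex, rose by 0.39, 0.27 and 0.38 in mutants and by 0.40, 0.37 and 0.39 in WT mice. Jup, or plakoglobin, fell by 0.53 in mutants and 0.56 in WT mice. Nectin1, an adhesion protein of adherens junctions, fell by 0.46 in mutants and 0.47 in WT mice, and Ctnnd2, the delta-catenin of synapses, by 0.33 in mutants and 0.30 in WT mice. Between genotypes the list had 0 called genes in either state and 1 on average over states, the receptor phosphatase gene Ptprf, which was higher in mutants by 0.16 (adjusted p = 0.0355).

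Of 24 more distant members of the superfamily, 2 rose and 11 fell in mutants and 1 rose and 10 fell in WT mice, beside 18.7% and 18.2% of all genes lower. The median difference was −0.033 in mutants and −0.072 in WT mice. Clstn1 and Clstn3, calsyntenins of the synapse, fell by 0.41 and 0.44 in mutants and by 0.38 and 0.39 in WT mice, and Celsr2, a planar polarity cadherin, by 0.64 in mutants and 0.58 in WT mice. The desmosomal cadherin Dsc2 rose by 0.19 in mutants and 0.18 in WT mice. The receptor kinase gene Ret, which carries cadherin-like domains, was higher in mutants by 0.27 on average over both states (adjusted p = 0.0302).

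Of 13 genes known to regulate which clustered protocadherins a neuron uses, 5 rose and 4 fell in mutants and 5 rose and 5 fell in WT mice, while 41.3% of all genes were called in mutants and 43.3% in WT mice. The median difference was 0.034 in mutants and 0.031 in WT mice. The cohesin genes went both ways. Smc3 and Stag2 rose by 0.32 and 0.42 in mutants and by 0.36 and 0.43 in WT mice, and Rad21 fell by 0.33 in mutants and 0.28 in WT mice. Smchd1, which silences clustered protocadherins, rose by 0.26 in mutants and 0.30 in WT mice, and the DNA methyltransferase gene Dnmt3a fell by 0.42 in mutants and 0.36 in WT mice. Of 15 genes that act downstream of protocadherins, 3 rose and 9 fell in mutants and 3 rose and 10 fell in WT mice, beside 18.7% of all genes lower in mutants and 18.2% in WT mice. The median difference was −0.102 in mutants and −0.162 in WT mice. Taok2, the kinase through which Pcdh8 acts on N-cadherin in rat neurons, fell by 0.54 in mutants and 0.55 in WT mice, and Rac1, a GTPase of the actin skeleton, rose by 0.30 in mutants and 0.27 in WT mice. Neither list had a called gene between genotypes in either state.

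Markers of other cells differed between states as well. Over all genes 22.6% rose and 18.7% fell in mutants, and 25.1% rose and 18.2% fell in WT mice. The counts of these short lists were not tested against those shares. Of 7 astrocyte markers 0 rose and 5 fell in mutants and 1 rose and 5 fell in WT mice, and of 4 CA1 markers 3 fell in each genotype. Of 7 endothelial markers 3 fell in mutants and 2 fell in WT mice, and of 9 markers of meninges and fibroblasts 2 rose and 6 fell in mutants and 2 rose and 4 fell in WT mice. Of 6 mural markers 1 rose and 2 fell in each genotype, with a mean level of 7.31 to 7.44 in mutants after learning against 7.46 to 7.61 in mutants at basal, and of 7.29 to 7.47 in WT mice after learning against 7.37 to 7.53 in WT mice at basal. Of 5 thalamus markers 1 rose and 3 fell in mutants and 1 rose and 4 fell in WT mice. Their mean lay between 7.62 and 7.70 in mutants after learning, against 7.69 to 7.88 in mutants at basal, and between 7.56 and 7.72 in WT mice after learning, against 7.73 to 7.88 in WT mice at basal. Of 5 neocortex markers 1 rose and 2 fell in mutants and 3 rose and 2 fell in WT mice. Their mean lay between 8.88 and 9.07 in mutants after learning, against 8.84 to 9.03 in mutants at basal, and between 8.94 and 9.01 in WT mice after learning, against 8.76 to 8.90 in WT mice at basal. Of 9 interneuron markers 3 rose and 3 fell in mutants and 4 rose and 3 fell in WT mice, and of 5 CA3 markers 1 rose and 2 fell in mutants and 1 rose and 1 fell in WT mice. The oligodendrocyte, precursor and microglia lists had at most 2 called in either direction in each genotype, and blood had 1 measured marker of 4, which was not called. Of 8 dentate granule markers 4 rose and 2 fell in mutants and 4 rose and 1 fell in WT mice. The mean of 11 choroid plexus markers lay between 6.09 and 7.02 in mutants after learning and between 6.14 and 6.42 in WT mice after learning, and between 6.59 and 7.11 in mutants at basal and between 6.03 and 7.08 in WT mice at basal. All 11 lay above 0 in mutants minus WT in both states, with 0 called. Between states 1 of the 11 lay above 0 in each genotype, with a median of −0.272 in mutants and −0.246 in WT mice. In mutants 0 rose and 4 fell, and in WT mice 0 rose and 1 fell. These markers thus differed with state themselves, so their part and that of the state cannot be told apart in the calls lost. With the mean of the choroid plexus markers as a covariate, 18 members were called between states in mutants (27 without it) and 22 in WT mice (24 without it). For mutants this left 4 type II cadherins rising (7 without it) and 5 Pcdhb genes (10 without it). The part of the other cell types in these results was not tested.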

How the data were processed

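Total RNA of the hippocampus was measured on 24 arrays, 6 in each of 4 groups taken from the sample labels. The deposited table holds log2 values made by the authors with RMA, per the submitters' processing notes; the version of RMA, the chip definition and the build behind it were not given in the sources used here. All values were used as deposited, with 0 missing. Of 35511 probes, 21789 carry 1 gene symbol in the platform annotation, 1621 several and 12101 none. The single-symbol probes gave 19938 genes, with the probe of the highest mean over all arrays for the 999 genes with more than 1.

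One linear model over all arrays, with a mean per group (20 residual degrees of freedom), was fitted in R 4.3.3 with limma 3.58.1, moderated with a mean-variance trend (29 degrees of freedom in all). P values are two-sided, with Benjamini-Hochberg adjustment across all 19938 genes, and calls are at an adjusted p under 0.05. Exact permutation tests used 6 against 6 arrays, where the smallest possible p is 0.00216. The relations of the Pcdhb mean used 100000 resamples within groups. Positions and promoters are from RefSeq on GRCm38.p6.

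Members were named by rule: 17 always (15 of them measured), in each comparison up to 8 called per class and direction by size, the 3 with the smallest p per direction where 0 were called, and the brightest and dimmest of each class, 47 in all. From other lists up to 3 called genes per direction by p were named. Pcdhb8, Pcdhb18 and Pcdh18 are outside the rule and were named after their values were seen. The members and lists were chosen with earlier results of these data known. Simulated data were laid out in the same groups, with noise independent between genes. Shifts of 0.25, 0.5 and 1 were added at once to 67, 67 and 66 genes. The basal genotype comparison found 38.8% of shifts of 0.25, 97% of shifts of 0.5 and 100% of shifts of 1. The interaction found 13.4%, 68.7% and 100%. These shares are for shifted genes among all 19938, whose median within-group SD was 0.123. The adjusted p threshold is easier to pass when more genes change. The real data called 20 genes at basal and 0 in the interaction, so the shares may be too high for every member. The 22 Pcdhb genes had a median SD of 0.211 and deviated together. Recovery for them was not tested, so the shares do not give the sensitivity for this class. Alternatives were a replicate block, other scaling and filters, probe averaging, array weights, covariates and leaving out each array. The check of the replicate numbers found correlations of −0.296 to 0.453 between same-numbered arrays, so the numbers were not taken to pair arrays.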

Additional observations from a re-analysis of the deposited data

Results flagged for a closer look

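In 12 of 188 sets of 6 arrays (47 named members in 4 groups), 1 array stood apart from the other 5 by more than Dixon's 95% critical value, where chance alone gives about 5% of sets. Mutant learning array 3 was low for Pcdhb16 (7.24, others 7.66 to 7.80), Pcdhb17 (7.0, others 7.43 to 7.51), Pcdhb20 (6.61, others 6.95 to 7.13) and Pcdhb21 (5.71, others 6.19 to 6.48). Mutant learning array 4 was high for Pcdhb6 (6.65, others 6.36 to 6.44). Mutant basal array 6 was low for Pcdhb16 (6.98, others 7.42 to 7.61), mutant basal array 5 for Pcdh20 (9.90, others 10.12 to 10.16) and mutant basal array 2 for Cdh3 (5.26, others 5.54 to 5.65). WT learning array 4 was low for Cdh7 (6.82, others 7.04 to 7.10), Cdh8 (10.01, others 10.19 to 10.28) and Pcdh20 (10.35, others 10.50 to 10.59). WT learning array 1 was high for Cdh24 (7.28, others 6.93 to 7.0). The 4 Pcdhb values of mutant learning array 3 come from neighbouring genes whose values ran together, and that array had the highest median of its group.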

How the results depend on the processing

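Across the alternatives the members called between states numbered 18 to 28 in mutants (27 as reported) and 19 to 31 in WT mice (24 as reported). Leaving out 1 array at a time gave 20 to 30 in mutants and 21 to 28 in WT mice. Of the 50 calls of members named by rule, 0 changed sign under the alternatives run; the mutant call of Pcdhb18 was not followed singly. Genotype comparisons and the interaction stayed at 0 called members in all of them, except the average over both states, which called 2 members (Cdh9 and Pcdhb22) with the array median as a covariate, an alternative added after seeing the data. That average had 0 to 1 called members without single arrays. The replicate block kept all 50 calls checked, with 28 called in mutants and 25 in WT mice. Only 7 of 36 same-numbered pairs of arrays correlated above 0.1, and 6 correlated best with their own number. In mutants, 18 of 26 named calls held in every fit without 1 array. Calls of Cdh9, Cdh10, Cdh13, Cdh20, Pcdh10, Pcdhb2, Pcdhb7 and Pcdhb9 were lost in some, with a largest adjusted p of 0.117 (Pcdhb7). In WT mice 21 of 24 held, and Cdh6, Pcdhb2 and Pcdhb5 were lost in some (largest adjusted p 0.112, Pcdhb2). Probe signal over background was not in the table, so dim members have no detection call. With genes below the median level left out, 34 members stayed, of which 23 were called in mutants and 22 in WT mice.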

Other observations

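One probe names 14 genes of the alpha protocadherin cluster together and was left out of the gene comparisons. In the fit over all 35511 probes it averaged 7.61 ± 0.05 in mutants after learning and 7.74 ± 0.03 in mutants at basal, and 7.68 ± 0.06 in WT mice after learning and 7.74 ± 0.09 in WT mice at basal (SD, n = 6). It fell by 0.13 in mutants (adjusted p = 0.0227), and the WT difference was −0.06 (adjusted p = 0.311), with an interaction of −0.07 (adjusted p = 1). Mutants minus WT gave −0.07 after learning and 0.00 at basal (adjusted p = 0.76 after learning and 1 at basal). In the same arrays 20 of 22 Pcdhb genes in mutants and 21 in WT mice lay above 0 between states. How the signal of this probe divides among the alpha genes was not tested.

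The correlation of a member with the array median within groups also differed by class, with a median r of −0.534 for the 12 type II cadherins, −0.490 for the 22 Pcdhb genes, −0.290 for the 12 non-clustered protocadherins, 0.439 for the 5 type I cadherins, 0.537 for the 5 other cadherins and −0.011 for all genes. Single genes ran from −0.915 to 0.959, with 50.6% of all genes below 0, so values of both signs offset each other in the median of all genes. These are descriptions over 24 arrays that share their normalization.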
